A study of Mus musculus with 96 samples.

Results

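The 34 genes described here encode chaperones, folding enzymes, stress sensors, degradation factors and translocation proteins of the endoplasmic reticulum (ER), and their RNA was measured in the livers of 96 male mice fed a control or a calorie-restricted diet. A gene was a member if its symbol was on a list of 34 and an array probe set was annotated to that symbol alone. Where a gene had several such probe sets, the one with the highest mean log2 signal over all arrays stood for it. All 34 genes were found among the 18193 genes with a single-symbol probe set, and all 34 passed the filter on low signal that left 14777 genes for testing. By role they were 5 chaperones (the membrane-bound Canx among them), 5 disulfide isomerases and 6 co-factors of the chaperones. The others were 6 sensors and regulators, 8 factors of ER-associated degradation and 4 proteins of the translocation channel.

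Secreted and membrane proteins enter the ER through the Sec61 channel and fold there with the help of chaperones and disulfide isomerases, and chains that fail to fold are pulled back out and degraded. When unfolded chains accumulate, the membrane sensors encoded by Ern1, Atf6 and Eif2ak3 start the unfolded protein response, which raises the genes of folding and degradation and slows translation. Hepatocytes carry an extensive ER because they make most plasma proteins and assemble lipoproteins there.

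The strains, 6 in number, were the inbred DBA/2J, CBA/J, C3H/HeJ, C57BL6/J and 129S1/SvImJ and B6C3F1/J, whose mice are offspring of a C57BL6/J by C3H/HeJ cross. All mice were males bought from the Jackson Laboratory at 6 weeks of age, housed singly and given 84 kcal per week of an AIN93M-based diet until 8 weeks, when they either stayed on the control diet or went to a diet with 25% fewer calories. Livers were taken at 22 weeks, after 14 weeks on the diets, which gave 12 groups of strain and diet with 8 mice each and 1 mouse per array. No mouse carried a stated transgene, deletion or drug treatment, and the sources used here do not give the time between the last meal and collection. An Affymetrix mouse expression array gave the signals, which are stated as log2 of the deposited signal. A difference is the restricted mean minus the control mean on that scale, so a value below 0 is a lower level in restricted mice, and it is followed by ± its standard error. It was tested with limma over all 14777 genes, and a gene was called at a Benjamini-Hochberg adjusted p under 0.05.

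A pair of arrays and 1 strain stood apart from the rest. The median log2 signal of an array averaged 6.71, but was 8.655 for control replicate 2 of B6C3F1/J and 8.295 for restricted replicate 6 of DBA/2J, against at most 7.504 on the other arrays. In CBA/J the array median rose from a mean of 6.519 in controls to 7.294 in restricted mice (exact permutation test over the 16 mice, two-sided, p = 0.000155, adjusted p = 0.00261 over 84 such tests), and the difference between 3' and 5' Gapdh control signal rose from -0.404 to -0.032 (exact permutation p = 0.000155). Results of the members are given with and without these arrays where both were computed. The counts by promoter match, the calls of single probe sets and those of the further gene lists below rest on all arrays only. Of the 8 hepatocyte markers, 5 were called higher and none lower in restricted mice. Their mean signal was between 15.27 and 16.15 over control groups and between 15.27 and 17 over restricted groups, and Alb, which encodes albumin, was between 15.1 and 18.9 on all arrays. In CBA/J that mean moved from 15.514 to 17.005 (adjusted p = 0.00261, exact permutation test). Averaged over strains, the hepatocyte, endothelial and stellate marker means were 0.319, 0.157 and 0.165 higher in restricted mice (permutation within strains, adjusted p = 0.00126, 0.0174 and 0.0202 over 14 array measures). Without CBA/J the hepatocyte difference was 0.084 (permutation, adjusted p = 0.497), and the endothelial and stellate differences were 0.177 and 0.188 (adjusted p = 0.0198 for both). The 7 stellate markers did not move together in the limma test averaged over all strains. Col3a1 was called higher at 0.73 (adjusted p = 4.99e-09), Dcn lower at -0.40 (adjusted p = 9.92e-06), and the rest were not called. Plasma and B cell markers, whose cells also express many ER genes, had group means of 6.29 to 6.925 in controls and 6.221 to 7.405 in restricted mice, and 1 of 6 tested, Jchain, was called lower. Pancreatic acinar markers had group means of 5.85 to 6.703 and 5.577 to 7.193, with 1 of 6 tested called higher. In CBA/J the acinar mean rose by 1.113 and the plasma and B cell mean by 1.115 (exact permutation, adjusted p = 0.00261 for both), the T and NK cell mean by 1.583 (adjusted p = 0.00435) and the cholangiocyte mean by 1.329 (adjusted p = 0.0418). In C57BL6/J the endothelial mean rose by 0.243 (exact permutation, adjusted p = 0.0179), the T and NK cell mean fell by 1.037 (adjusted p = 0.0377), and the difference between 3' and 5' actin control signal rose by 0.255 (adjusted p = 0.0149). The other 3' to 5' differences and marker means did not pass within a strain. None of these markers was below its array's median on all arrays, and the part of cell composition in the results below was not tested. In bulk liver RNA, fewer cells of a type and less RNA per cell cannot be told apart.

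Many ER chaperone genes share a promoter sequence, the ER stress response element (ERSE), to which activated Atf6 and spliced Xbp1 bind together with the factor NF-Y. RefSeq promoters of 300 bases, 250 before to 50 after the gene start on the mouse build GRCm38.p6, were found for 28 of the 34 genes. The ERSE, searched on both strands as CCAAT and CCACG with any 9 bases between them, was present for 9 of these 28 genes (32.1%), against 39 of all 32851 promoters of the same length (0.119%). Members were counted by gene, with a match in any promoter, because Derl2 and Txndc5 had several. The share over all counts single promoters. The element was first described in promoters of this kind, so its frequency among these genes is not independent information. The shorter ERSE-II, searched as ATTGG and CCACG with any 1 base between them, was present in Herpud1 and Dnajb11 and in 12 of all promoters (0.0365%). The core of the unfolded protein response element, TGACGTGG, also searched on both strands, was present in Txndc5 and in 222 of all promoters (0.676%). The plain CCAAT box, which overlaps every ERSE match, was in a promoter of 21 of the 28 genes (75%) and in 37.4% of all promoters. The matched sites are shown because the diet differences below are read against them. Each is written 5' to 3' along the strand of the match, with capitals on the fixed letters of the motif.
Hspa5: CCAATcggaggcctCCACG
Hsp90b1, distal: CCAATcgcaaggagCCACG
Hsp90b1, proximal: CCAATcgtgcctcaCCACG
Calr: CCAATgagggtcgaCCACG
Canx: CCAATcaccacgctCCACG
Pdia6: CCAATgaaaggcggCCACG
Dnajc3: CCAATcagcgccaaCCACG
Creld2: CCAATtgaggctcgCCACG
Syvn1: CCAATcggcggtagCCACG
Derl3: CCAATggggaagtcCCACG
Herpud1: ATTGGgCCACG
Dnajb11: ATTGGcCCACG

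Counting the start base as 0, the Hspa5 site covered bases -65 to -47, the Pdia6 site -98 to -80, the Dnajc3 site -105 to -87, the Canx site -145 to -127 and the Syvn1 site -44 to -26, all on the gene's strand. The sites of Calr (-162 to -144), Creld2 (-126 to -108) and Derl3 (-156 to -138) lay on the opposite strand. Hsp90b1 held 1 site on each strand, at -212 to -194 and at -107 to -89. The ERSE-II matches lay at -52 to -42 in Herpud1 and at 7 to 17 in Dnajb11. Outside the fixed letters, the 9-base spacer differed between all 10 ERSE sites.

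Promoters of 4 members whose diet differences are described in detail below are shown whole, so that the site can be read in its setting: Hspa5 at chr2:34771840-34772139 on the plus strand, Hsp90b1 at chr10:86705395-86705694 on the minus strand, Pdia6 at chr12:17266339-17266638 on the plus strand and Creld2 at chr15:88819396-88819695 on the plus strand. Capitals mark the ERSE, which reads as its reverse complement in Creld2 and at the proximal site of Hsp90b1.
Hspa5: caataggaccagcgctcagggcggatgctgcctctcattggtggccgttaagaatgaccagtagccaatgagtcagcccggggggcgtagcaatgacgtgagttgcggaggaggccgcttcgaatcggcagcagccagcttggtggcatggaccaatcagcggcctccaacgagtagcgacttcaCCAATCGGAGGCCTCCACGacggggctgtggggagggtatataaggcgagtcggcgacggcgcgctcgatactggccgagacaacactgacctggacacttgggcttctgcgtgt
Hsp90b1: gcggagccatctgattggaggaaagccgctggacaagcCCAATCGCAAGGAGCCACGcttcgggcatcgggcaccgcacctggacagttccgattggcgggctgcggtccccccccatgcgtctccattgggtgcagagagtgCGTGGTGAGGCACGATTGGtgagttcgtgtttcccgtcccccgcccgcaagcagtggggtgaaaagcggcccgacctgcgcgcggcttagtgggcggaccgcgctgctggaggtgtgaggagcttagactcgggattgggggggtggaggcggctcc
Pdia6: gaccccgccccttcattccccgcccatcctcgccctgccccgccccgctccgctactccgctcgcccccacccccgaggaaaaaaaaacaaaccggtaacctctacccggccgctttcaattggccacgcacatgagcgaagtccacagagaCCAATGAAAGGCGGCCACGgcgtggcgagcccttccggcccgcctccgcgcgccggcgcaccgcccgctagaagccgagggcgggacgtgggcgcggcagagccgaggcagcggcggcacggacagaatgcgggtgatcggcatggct
Creld2: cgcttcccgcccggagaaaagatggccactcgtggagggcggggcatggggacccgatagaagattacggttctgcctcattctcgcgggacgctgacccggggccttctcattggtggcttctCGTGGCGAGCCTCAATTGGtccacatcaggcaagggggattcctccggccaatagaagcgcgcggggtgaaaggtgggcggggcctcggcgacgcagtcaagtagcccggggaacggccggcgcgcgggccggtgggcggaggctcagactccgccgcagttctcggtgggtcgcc

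**Figure D1:**
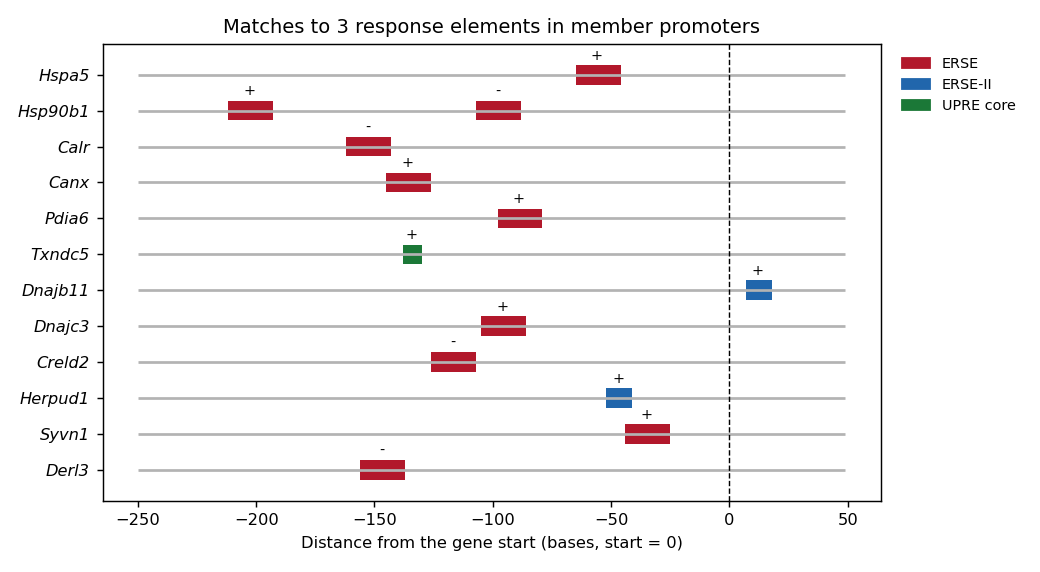
Positions of ERSE, ERSE-II and unfolded protein response element matches in the 12 member promoters that hold 1, plotted as distance from the gene start in bases, with the strand of the match above each box. All ERSE boxes lie before the start and only the Dnajb11 ERSE-II lies after it, at bases 7 to 17.

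Averaged over the 6 strains, 4 of 5 chaperones and 4 of 6 co-factors were called lower in restricted mice. Sec61a1 and Sec61b, subunits of the translocation channel, were called higher. Of the chaperones, Hspa5 and Hyou1 kept that call in all 13 alternative settings, Calr and Canx lost it without CBA/J, and Hsp90b1 was not called (adjusted p = 0.0526). Hspa5, the main ER chaperone of the Hsp70 class (BiP), was 1.49-fold lower in restricted mice, and the stress-induced genes Dnajb9, Creld2 and Manf were 1.71-fold, 1.78-fold and 1.70-fold lower. Sec61b, a small subunit of the translocation channel, was 1.77-fold higher, and the isomerase Pdia6 and the co-factor Sdf2l1 were 1.56-fold and 1.52-fold higher. Of the 34 members, 13 were called lower (38.2%, against 12.5% of all genes tested) and 8 higher (23.5%, against 15.2%), while 13 were not called. The median member difference was -0.10, and the median of all genes 0.07. Of the members, 4 were both called lower and changed by at least 1.5-fold (Dnajb9, Creld2, Manf and Derl3; 2% of all genes) and 3 were called higher by that much (Pdia6, Sdf2l1 and Sec61b; 3.93%). The difference was below 0 in all 6 strains for 6 members, Hspa5, Dnajb9, Creld2, Manf, Syvn1 and Derl3 (5.83% of all genes), and above 0 in all 6 for 3 members, Pdia6, Sec61a1 and Sec61b (7.62%).

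Set against the 12.5% lower and 15.2% higher of all genes, 4 of the 5 chaperones were lower and none higher, with a median difference of -0.34, and among the 6 co-factors 4 were lower and 1 higher, with a median of -0.52. Of the 5 isomerases 2 were lower and 2 higher, with a median of 0.08. Of the 6 sensors and regulators 2 were lower and none higher, of the 8 degradation factors 1 was lower and 3 higher, and of the 4 translocation proteins 2 were higher and none lower. Of the 9 members with an ERSE match, 5 were lower and 1 higher, with a median difference of -0.34. Of the 19 with a promoter but no match, 5 were lower and 6 higher, with a median of 0.04. The matches thus split over all 3 outcomes, since Pdia6, with an ERSE, rose while Hspa5 and Creld2 fell. The median of the 9 was the value of Canx. Canx and Calr lost their calls without CBA/J, as did Pdia3, Ern1 and P4hb among those without a match. Derl3, also among the 5 lower, reached the array median on 57 of 96 arrays. These counts by match were not computed without CBA/J or the 2 arrays that stand apart.

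Without CBA/J and without the 2 arrays that stand apart, 78 arrays remained, and 12 members were called lower (11.9% of all genes) and 10 higher (12.4%), with a median of -0.06 against 0.02 for all genes. In that subset Hspa5 differed by -0.71 (adjusted p = 1.36e-14), Creld2 by -1.06 (adjusted p = 2.5e-18), Manf by -0.81 (adjusted p = 1.32e-13) and Sec61b by 0.79 (adjusted p = 2.06e-11). Over the 13 alternative settings, those adjusted p-values ran from 5.68e-17 to 1.28e-05 for Hspa5, from 3.8e-20 to 0.000592 for Creld2, from 2.44e-18 to 2.53e-07 for Manf and from 1.93e-15 to 2.84e-10 for Sec61b. By role, 3 chaperones were then lower (Hspa5, Calr and Hyou1), with a median of -0.21, and 4 co-factors were lower and 2 higher, with a median of -0.44. The isomerases again had 2 lower and 2 higher, but their median turned to -0.06. Degradation factors had 1 lower and 4 higher, and the counts of the sensors and of the translocation proteins were those with all arrays. Among the sensors, however, Xbp1 was then called lower and Ern1 was not.

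**Figure D2:**
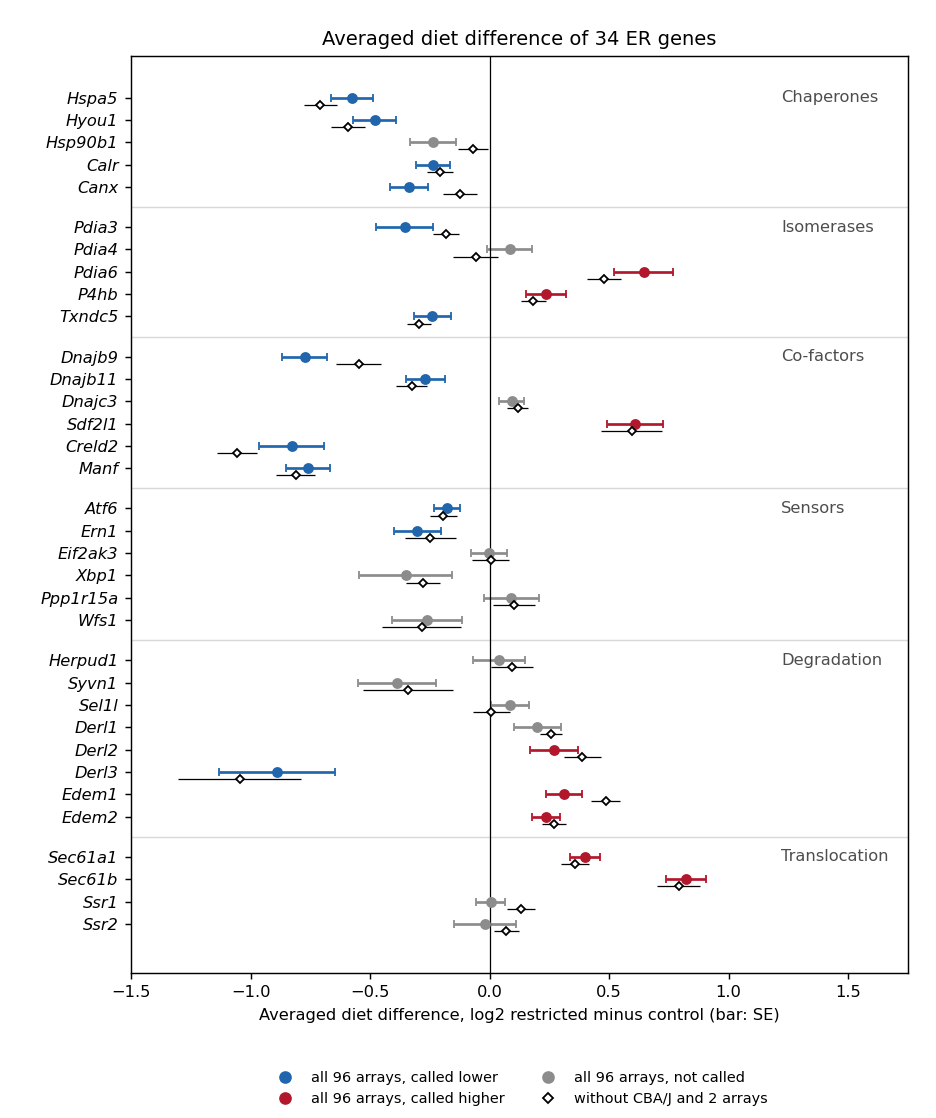
Averaged diet difference of the 34 members (x axis: log2 restricted minus control, bars: SE), in all 96 arrays (filled, coloured by call) and without CBA/J and the 2 arrays that stand apart. Dnajb9, Creld2, Manf and Derl3 lie furthest below 0 and Sec61b, Pdia6 and Sdf2l1 furthest above it, and Canx lies at -0.13 in the reduced set.

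Hspa5 encodes BiP, which binds unfolded chains as they enter the ER and keeps the stress sensors inactive in its bound state. In 129S1/SvImJ livers, Hspa5 ran from 13.69 to 15.15 in control mice (median 14.02) and from 12.90 to 13.75 in restricted mice (median 13.53). The C57BL6/J controls spanned 13.92 to 14.65 for Hspa5 around a median of 14.38, and the restricted mice 13.27 to 13.92 around 13.47. For Hspa5 in C3H/HeJ, the lowest, median and highest signals were 13.66, 14.08 and 14.35 on the control diet and 13.06, 13.40 and 13.93 on the restricted diet. In these 3 strains most restricted mice lay below every control: 7 of 8 in 129S1/SvImJ, 7 of 8 in C57BL6/J and 6 of 8 in C3H/HeJ. Hspa5 in CBA/J lay between 13.85 and 14.75 in controls, with a median of 14.25, and between 13.90 and 14.35 in restricted mice, with a median of 14.01. Hspa5 signals of DBA/2J controls had a median of 14.83 and a range of 14.28 to 15.57, and those of restricted mice a median of 13.87 and a range of 13.40 to 14.49. In B6C3F1/J livers, Hspa5 ran from 10.92 to 14.32 in control mice (median 13.99) and from 13.24 to 13.67 in restricted mice (median 13.45). The CBA/J groups overlapped throughout, and 6 of 8 restricted DBA/2J mice lay below all controls. In B6C3F1/J the lowest control value was that of the array that stands apart, and the other 7 controls, from 13.70 to 14.32, all lay above the 8 restricted mice. On average over strains, Hspa5 differed by -0.57 ± 0.09 (adjusted p = 7.5e-08). Hspa5 fell in C57BL6/J at -0.80 ± 0.21 (adjusted p = 0.0138) and in DBA/2J at -0.95 ± 0.21 (adjusted p = 0.00154). Differences that were not called were -0.65 ± 0.21 (adjusted p = 0.0529) in 129S1/SvImJ, -0.62 ± 0.21 (adjusted p = 0.145) in C3H/HeJ, -0.23 ± 0.21 (adjusted p = 0.395) in CBA/J and -0.19 ± 0.21 (adjusted p = 0.703) in B6C3F1/J. Without the 2 arrays the standard error of a strain's difference was 0.15 in place of 0.21, and Hspa5 was called lower in every strain except CBA/J, with -0.65 ± 0.15 in 129S1/SvImJ, -0.62 ± 0.15 in C3H/HeJ and -0.58 ± 0.15 in B6C3F1/J.

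Hyou1 is a large Hsp70-like protein that exchanges nucleotide on BiP. For Hyou1 in 129S1/SvImJ, the lowest, median and highest signals were 9.41, 10.04 and 10.64 on the control diet and 9.39, 9.61 and 9.89 on the restricted diet. Hyou1 in C57BL6/J lay between 10.20 and 11.04 in controls, with a median of 10.67, and between 9.22 and 10.24 in restricted mice, with a median of 9.83. Hyou1 signals of C3H/HeJ controls had a median of 10.50 and a range of 10.19 to 10.75, and those of restricted mice a median of 9.95 and a range of 9.52 to 10.38. Restricted and control mice overlapped in all 3 strains, yet 7 of 8 restricted mice lay below every control in both C57BL6/J and C3H/HeJ. In CBA/J livers, Hyou1 ran from 9.67 to 10.79 in control mice (median 10.53) and from 9.58 to 10.43 in restricted mice (median 10.10). The DBA/2J controls spanned 10.13 to 11.41 for Hyou1 around a median of 10.78, and the restricted mice 8.98 to 10.09 around 10.03. For Hyou1 in B6C3F1/J, the lowest, median and highest signals were 7.27, 10.25 and 10.91 on the control diet and 9.85, 10.07 and 10.56 on the restricted diet. In DBA/2J the groups did not overlap. In CBA/J 1 restricted mouse lay below all controls, and without the array that stands apart 3 of 8 restricted B6C3F1/J mice lay below the other 7 controls. The averaged difference was -0.48 ± 0.09 (adjusted p = 8.89e-06), and the calls by strain were C57BL6/J at -0.92 ± 0.22 (adjusted p = 0.00421) and DBA/2J at -0.79 ± 0.22 (adjusted p = 0.0139). B6C3F1/J gave 0.17 ± 0.22 (adjusted p = 0.752), and -0.22 ± 0.17 without its control replicate 2. C3H/HeJ, at -0.59 ± 0.22 (adjusted p = 0.199), was called once the 2 arrays were left out.

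Hsp90b1, the ER member of the Hsp90 class, acts late in folding on a small set of clients such as integrins and Toll-like receptors. Hsp90b1 signals of 129S1/SvImJ controls had a median of 13.36 and a range of 12.87 to 14.07, and those of restricted mice a median of 13.34 and a range of 13.15 to 13.81. In C57BL6/J livers, Hsp90b1 ran from 13.29 to 13.89 in control mice (median 13.79) and from 13.02 to 13.76 in restricted mice (median 13.42). The C3H/HeJ controls spanned 13.36 to 13.73 for Hsp90b1 around a median of 13.49, and the restricted mice 13.33 to 13.91 around 13.73. None of these 3 strains separated its diets: 3 of 8 restricted C57BL6/J mice lay below all controls, and 4 of 8 restricted C3H/HeJ mice lay above them. For Hsp90b1 in CBA/J, the lowest, median and highest signals were 13.46, 13.57 and 13.74 on the control diet and 11.43, 11.83 and 13.17 on the restricted diet. Hsp90b1 in DBA/2J lay between 13.15 and 14.26 in controls, with a median of 13.77, and between 13.12 and 14.28 in restricted mice, with a median of 13.36. Hsp90b1 signals of B6C3F1/J controls had a median of 13.29 and a range of 9.76 to 13.93, and those of restricted mice a median of 13.49 and a range of 12.90 to 13.65. CBA/J was different, since all 8 restricted mice lay below all 8 controls, while DBA/2J and B6C3F1/J overlapped. Hsp90b1 fell in CBA/J at -1.52 ± 0.24 (adjusted p = 1.24e-07) and was called in no other strain. The averaged difference was -0.24 ± 0.10 (adjusted p = 0.0526). It passed the threshold without the 2 arrays at -0.31 (adjusted p = 4.42e-05) and with array weights at -0.30 (adjusted p = 1.01e-05), and was 0.02 (adjusted p = 0.944) without CBA/J (adjusted p between 1.01e-05 and 0.944 over 13 alternatives). Leaving out any 1 of 18 single arrays also brought it under the threshold, most of all control replicate 2 of B6C3F1/J, at -0.31 (adjusted p = 4.82e-05). The test for unequal diet differences between strains gave an adjusted p of 3.46e-05.

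Canx is the membrane-bound lectin chaperone that holds newly made glycoproteins. The 129S1/SvImJ controls spanned 11.84 to 13.07 for Canx around a median of 12.57, and the restricted mice 12.004 to 12.99 around 12.54. For Canx in C57BL6/J, the lowest, median and highest signals were 13.07, 13.49 and 13.73 on the control diet and 13.18, 13.36 and 13.88 on the restricted diet. Canx in C3H/HeJ lay between 12.84 and 13.33 in controls, with a median of 12.98, and between 12.88 and 13.37 in restricted mice, with a median of 13.11. Diets overlapped in each of these strains, with at most 1 of 8 restricted mice above all controls and none below them. Canx signals of CBA/J controls had a median of 13.25 and a range of 13.04 to 13.59, and those of restricted mice a median of 11.55 and a range of 10.65 to 12.55. In DBA/2J livers, Canx ran from 12.66 to 13.52 in control mice (median 13.35) and from 11.42 to 13.48 in restricted mice (median 12.77). The B6C3F1/J controls spanned 10.87 to 12.90 for Canx around a median of 12.60, and the restricted mice 12.19 to 13.19 around 13.05. The CBA/J groups again did not overlap, and 3 of 8 restricted DBA/2J mice were below all controls, whereas 5 of 8 restricted B6C3F1/J mice were above theirs. Without the B6C3F1/J array that stands apart, 5 restricted mice of that strain lay above the other 7 controls and 3 lay below them. Canx fell in CBA/J at -1.74 ± 0.20 (adjusted p = 1.03e-11) and in DBA/2J at -0.63 ± 0.20 (adjusted p = 0.0356). B6C3F1/J, at 0.39 ± 0.20 (adjusted p = 0.281), was not called, and gave 0.17 ± 0.175 (adjusted p = 0.721) without the 2 arrays that stand apart. The averaged difference was -0.34 ± 0.08 (adjusted p = 0.000618), but it rested on CBA/J: it was -0.06 (adjusted p = 0.755) without that strain (adjusted p between 1.28e-07 and 0.755 over 13 alternatives). Unequal differences between strains had an adjusted p of 1.84e-08.

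Calr, the soluble counterpart of Canx, differed by -0.24 ± 0.07 (adjusted p = 0.00736) on average and was called lower in C57BL6/J at -0.65 ± 0.17 (adjusted p = 0.0141), where all 8 restricted mice lay below all controls, and in CBA/J at -0.67 ± 0.17 (adjusted p = 0.00135). Its averaged difference was -0.15 (adjusted p = 0.209) without CBA/J and -0.12 (adjusted p = 0.208) with the mean of its probe sets (adjusted p between 1.54e-06 and 0.209 over 13 alternatives).

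Among the disulfide isomerases, which form and reshuffle disulfide bonds, Pdia6 rose with restriction, and its promoter holds an ERSE. Pdia6 in 129S1/SvImJ lay between 11.16 and 11.94 in controls, with a median of 11.57, and between 11.40 and 12.87 in restricted mice, with a median of 12.39. Pdia6 signals of C57BL6/J controls had a median of 11.52 and a range of 11.30 to 11.90, and those of restricted mice a median of 11.61 and a range of 11.10 to 12.22. In C3H/HeJ livers, Pdia6 ran from 11.06 to 12.51 in control mice (median 11.39) and from 11.76 to 12.31 in restricted mice (median 11.89). In 129S1/SvImJ 6 of 8 restricted mice lay above all controls, in C57BL6/J 1, and in C3H/HeJ none, because control replicate 6 reached 12.51. The CBA/J controls spanned 11.84 to 12.47 for Pdia6 around a median of 12.13, and the restricted mice 12.84 to 13.79 around 13.04. For Pdia6 in DBA/2J, the lowest, median and highest signals were 11.57, 12.06 and 12.55 on the control diet and 11.23, 12.43 and 12.87 on the restricted diet. Pdia6 in B6C3F1/J lay between 6.04 and 11.48 in controls, with a median of 11.10, and between 11.51 and 12.37 in restricted mice, with a median of 11.96. All 8 restricted mice lay above all controls in CBA/J and in B6C3F1/J, the latter also without the array at 6.04, since the other 7 controls spanned 10.98 to 11.48. In DBA/2J 3 of 8 restricted mice lay above all controls. Averaged over strains, Pdia6 differed by 0.65 ± 0.12 (adjusted p = 1.6e-05). Pdia6 rose in CBA/J by 1.007 ± 0.30 (adjusted p = 0.00532) and in B6C3F1/J by 1.40 ± 0.30 (adjusted p = 0.00131), and the latter was 0.76 ± 0.16 without the array that stands apart. In 129S1/SvImJ it was 0.67 ± 0.30 (adjusted p = 0.227) with all arrays and was called without the 2 arrays. The mean of its probe sets gave 0.27 (adjusted p = 0.0285), since the other probe set, at or above the array median on 42 of 96 arrays, was not called (adjusted p between 2.03e-12 and 0.0285 over 13 alternatives).

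Pdia4, another isomerase, had no averaged difference that passed the test but differences of opposite sign between strains. In 129S1/SvImJ livers, Pdia4 ran from 7.68 to 9.84 in control mice (median 8.96) and from 7.23 to 8.85 in restricted mice (median 8.39). The C57BL6/J controls spanned 9.18 to 10.25 for Pdia4 around a median of 9.70, and the restricted mice 8.74 to 9.57 around 9.004. For Pdia4 in C3H/HeJ, the lowest, median and highest signals were 8.87, 9.42 and 9.75 on the control diet and 9.13, 9.65 and 10.21 on the restricted diet. The restricted median was below the control median in 129S1/SvImJ and C57BL6/J and above it in C3H/HeJ, with 5 of 8 restricted C57BL6/J mice below all controls. Pdia4 in CBA/J lay between 8.33 and 9.16 in controls, with a median of 8.70, and between 8.32 and 10.80 in restricted mice, with a median of 9.68. Pdia4 signals of DBA/2J controls had a median of 9.78 and a range of 9.02 to 10.24, and those of restricted mice a median of 9.75 and a range of 9.10 to 10.44. In B6C3F1/J livers, Pdia4 ran from 8.50 to 10.44 in control mice (median 9.24) and from 9.65 to 10.44 in restricted mice (median 9.87). In CBA/J 7 of 8 restricted mice lay above all controls, in DBA/2J the medians were close, and in B6C3F1/J 7 of 8 restricted mice lay above the other 7 controls once the array that stands apart, which gave the highest control value, was left out. Pdia4 rose in CBA/J by 0.95 ± 0.23 (adjusted p = 0.000519). The other strains gave -0.70 ± 0.23 (adjusted p = 0.0517) in 129S1/SvImJ, -0.70 ± 0.23 (adjusted p = 0.0707) in C57BL6/J, 0.27 ± 0.23 (adjusted p = 0.841) in C3H/HeJ, 0.003 ± 0.23 (adjusted p = 0.997) in DBA/2J and 0.68 ± 0.23 (adjusted p = 0.0665) in B6C3F1/J. Without the 2 arrays it was also called lower in 129S1/SvImJ and C57BL6/J and higher in B6C3F1/J. The averaged value was 0.08 ± 0.09 (adjusted p = 0.553) and the test for unequal differences had an adjusted p of 1.79e-05.

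The remaining isomerases split. Pdia3, which works with the lectin chaperones, differed by -0.36 ± 0.12 (adjusted p = 0.0187), with calls in DBA/2J at -1.15 ± 0.30 (adjusted p = 0.00671) and CBA/J at -0.94 ± 0.30 (adjusted p = 0.00806), but was -0.18 (adjusted p = 0.125) with a covariate for the array median, -0.18 (adjusted p = 0.17) with the mean of its probe sets and -0.24 (adjusted p = 0.272) without CBA/J (adjusted p between 5.44e-07 and 0.272 over 13 alternatives). Txndc5 differed by -0.24 ± 0.08 (adjusted p = 0.0112) and was called in DBA/2J at -0.78 ± 0.19 (adjusted p = 0.00324), where the groups did not overlap. It was -0.15 (adjusted p = 0.0698) with the covariate (adjusted p between 1.24e-06 and 0.0698 over 13 alternatives). P4hb, the founding member of the family, differed by 0.24 ± 0.09 (adjusted p = 0.0287) and rose in CBA/J by 0.56 ± 0.21 (adjusted p = 0.0253). That averaged call was lost under quantile normalization at 0.11 (adjusted p = 0.113), on centring at the 75th percentile at 0.22 (adjusted p = 0.139) and without CBA/J at 0.17 (adjusted p = 0.277, and between 5.39e-06 and 0.277 over 13 alternatives).

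Dnajb9 is a J-domain co-factor that brings misfolded chains and the sensor Ern1 to BiP. For Dnajb9 in 129S1/SvImJ, the lowest, median and highest signals were 11.11, 11.90 and 13.45 on the control diet and 11.39, 11.68 and 12.23 on the restricted diet. Dnajb9 in C57BL6/J lay between 12.48 and 13.49 in controls, with a median of 13.10, and between 12.11 and 12.92 in restricted mice, with a median of 12.43. Dnajb9 signals of C3H/HeJ controls had a median of 12.70 and a range of 12.14 to 13.25, and those of restricted mice a median of 12.32 and a range of 12.10 to 12.57. All 3 strains overlapped, with 4 of 8 restricted C57BL6/J mice and 2 of 8 restricted C3H/HeJ mice below all controls. In CBA/J livers, Dnajb9 ran from 12.15 to 13.51 in control mice (median 12.55) and from 10.18 to 11.45 in restricted mice (median 10.36). The DBA/2J controls spanned 12.01 to 14 for Dnajb9 around a median of 12.89, and the restricted mice 11.61 to 12.64 around 12.10. For Dnajb9 in B6C3F1/J, the lowest, median and highest signals were 10.46, 12.30 and 12.67 on the control diet and 10.98, 11.91 and 12.29 on the restricted diet. In CBA/J the highest restricted value lay below the lowest control value. In DBA/2J 4 of 8 restricted mice lay below all controls, and in B6C3F1/J 5 of 8 lay below the 7 controls other than the array that stands apart. Over the 6 strains together, Dnajb9 differed by -0.77 ± 0.09 (adjusted p = 4.73e-11). Dnajb9 fell in CBA/J at -2.11 ± 0.23 (adjusted p = 1.51e-12) and in DBA/2J at -0.86 ± 0.23 (adjusted p = 0.00922). Values not called were -0.27 ± 0.23 (adjusted p = 0.658) in 129S1/SvImJ, -0.65 ± 0.23 (adjusted p = 0.107) in C57BL6/J, -0.37 ± 0.23 (adjusted p = 0.681) in C3H/HeJ and -0.38 ± 0.23 (adjusted p = 0.405) in B6C3F1/J. Without CBA/J the averaged difference was -0.51 (adjusted p = 9.78e-05, and between 7.3e-16 and 9.78e-05 over 13 alternatives), and the test for unequal differences had an adjusted p of 1.57e-05.

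Creld2 is an ER protein that is induced by ER stress. Creld2 signals of 129S1/SvImJ controls had a median of 9.78 and a range of 9.49 to 10.80, and those of restricted mice a median of 8.93 and a range of 8.70 to 9.33. In C57BL6/J livers, Creld2 ran from 9.91 to 10.67 in control mice (median 10.29) and from 8.36 to 9.55 in restricted mice (median 9.36). The C3H/HeJ controls spanned 9.75 to 10.41 for Creld2 around a median of 10.12, and the restricted mice 8.66 to 9.51 around 9.10. In each of these 3 strains all 8 restricted mice lay below all 8 controls. For Creld2 in CBA/J, the lowest, median and highest signals were 9.63, 9.99 and 10.62 on the control diet and 8.96, 9.64 and 9.94 on the restricted diet. Creld2 in DBA/2J lay between 9.35 and 11.01 in controls, with a median of 10.16, and between 8.04 and 9.65 in restricted mice, with a median of 8.74. Creld2 signals of B6C3F1/J controls had a median of 10.02 and a range of 4.39 to 10.38, and those of restricted mice a median of 9.23 and a range of 8.66 to 9.41. In CBA/J 3 of 8 restricted mice lay below all controls and in DBA/2J 7 of 8. The B6C3F1/J array that stands apart read 4.39, and the other 7 controls all lay above the 8 restricted mice. Creld2 had an averaged difference of -0.83 ± 0.14 (adjusted p = 5.52e-07). Creld2 fell in C57BL6/J at -1.11 ± 0.33 (adjusted p = 0.0373) and in DBA/2J at -1.32 ± 0.33 (adjusted p = 0.00579), while 129S1/SvImJ gave -0.999 ± 0.33 (adjusted p = 0.0596), C3H/HeJ -1.002 ± 0.33 (adjusted p = 0.114), CBA/J -0.39 ± 0.33 (adjusted p = 0.343) and B6C3F1/J -0.15 ± 0.33 (adjusted p = 0.862). Without the 2 arrays the standard error was 0.18 in place of 0.33, and Creld2 was called lower in all strains but CBA/J, with -0.86 ± 0.18 in B6C3F1/J.

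Manf is a small ER protein that binds BiP and is secreted under ER stress. The 129S1/SvImJ controls spanned 10.97 to 12.31 for Manf around a median of 11.23, and the restricted mice 10.26 to 12.06 around 11.31. For Manf in C57BL6/J, the lowest, median and highest signals were 11.84, 12.30 and 12.44 on the control diet and 10.65, 11.03 and 11.38 on the restricted diet. Manf in C3H/HeJ lay between 11.32 and 12.37 in controls, with a median of 12.12, and between 10.81 and 11.88 in restricted mice, with a median of 11.33. All 8 restricted C57BL6/J mice lay below all controls, against 2 of 8 in 129S1/SvImJ and 4 of 8 in C3H/HeJ. Manf signals of CBA/J controls had a median of 12.12 and a range of 11.53 to 12.70, and those of restricted mice a median of 11.38 and a range of 11.15 to 11.63. In DBA/2J livers, Manf ran from 11.98 to 12.92 in control mice (median 12.48) and from 9.84 to 11.44 in restricted mice (median 10.80). The B6C3F1/J controls spanned 9.16 to 12.49 for Manf around a median of 11.78, and the restricted mice 11.06 to 11.72 around 11.46. The DBA/2J groups did not overlap, 7 of 8 restricted CBA/J mice lay below all controls, and in B6C3F1/J 4 of 8 lay below the 7 controls other than the array that stands apart. Manf differed on average by -0.76 ± 0.09 (adjusted p = 5.78e-11). Manf fell in C57BL6/J at -1.19 ± 0.23 (adjusted p = 0.000152), in CBA/J at -0.71 ± 0.23 (adjusted p = 0.00842) and in DBA/2J at -1.55 ± 0.23 (adjusted p = 6.41e-07). 129S1/SvImJ gave -0.23 ± 0.23 (adjusted p = 0.726), C3H/HeJ -0.74 ± 0.23 (adjusted p = 0.064) and B6C3F1/J -0.14 ± 0.23 (adjusted p = 0.808). C3H/HeJ was called without the 2 arrays, and the DBA/2J difference was then -1.41 ± 0.18.

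**Figure D3:**
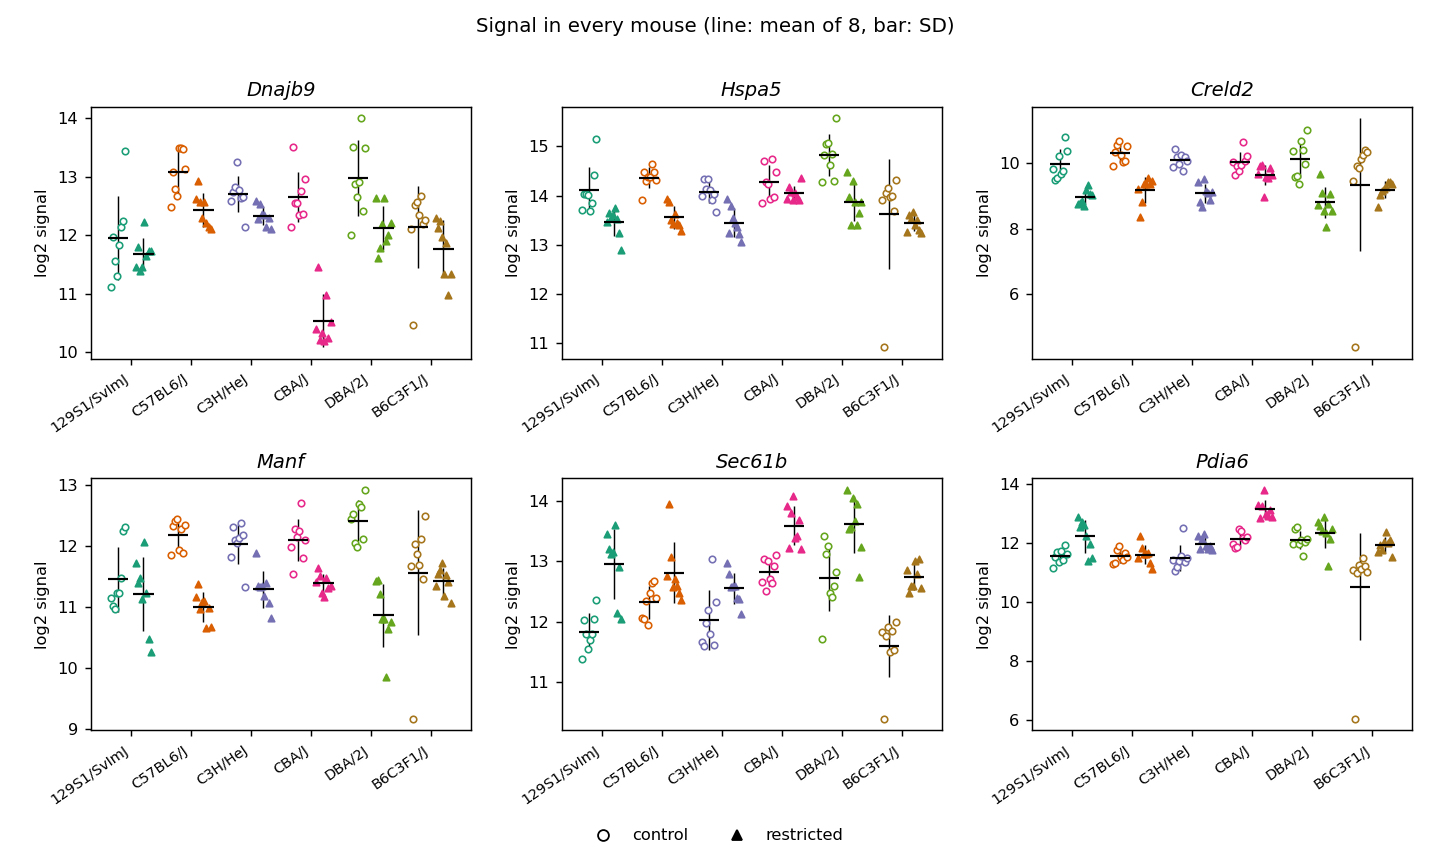
Log2 signal in every mouse for Dnajb9, Hspa5, Creld2, Manf, Sec61b and Pdia6 by strain (open circles: control, filled triangles: restricted, line: mean of 8 mice, bar: SD). The restricted CBA/J mice sit at 10.18 to 11.45 for Dnajb9, below all CBA/J controls, and the single low B6C3F1/J control point in all 6 panels is control replicate 2.

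Dnajb11 presents unfolded chains to BiP, and its promoter window holds an ERSE-II just after its start. Dnajb11 in 129S1/SvImJ lay between 9.62 and 10.54 in controls, with a median of 9.91, and between 8.93 and 9.89 in restricted mice, with a median of 9.67. Dnajb11 signals of C57BL6/J controls had a median of 10.58 and a range of 10.38 to 10.79, and those of restricted mice a median of 9.81 and a range of 9.48 to 10.71. In C3H/HeJ livers, Dnajb11 ran from 9.75 to 10.24 in control mice (median 9.99) and from 9.40 to 10.08 in restricted mice (median 9.90). In C57BL6/J 7 of 8 restricted mice lay below all controls and replicate 2 lay among them at 10.71. In 129S1/SvImJ 4 of 8 did, and in C3H/HeJ 2 of 8. The CBA/J controls spanned 8.98 to 10.09 for Dnajb11 around a median of 9.69, and the restricted mice 8.19 to 10.26 around 9.65. For Dnajb11 in DBA/2J, the lowest, median and highest signals were 10.17, 10.36 and 11.11 on the control diet and 9.36, 9.97 and 10.38 on the restricted diet. Dnajb11 in B6C3F1/J lay between 7.35 and 9.94 in controls, with a median of 9.51, and between 9.26 and 9.83 in restricted mice, with a median of 9.64. CBA/J overlapped throughout, and 5 of 8 restricted DBA/2J mice lay below all controls. The lowest B6C3F1/J control was the array that stands apart. Dnajb11 fell in C57BL6/J at -0.71 ± 0.20 (adjusted p = 0.0252). The averaged difference was -0.27 ± 0.08 (adjusted p = 0.00848), and -0.21 (adjusted p = 0.201) after quantile normalization (adjusted p between 3.57e-05 and 0.201 over 13 alternatives). B6C3F1/J gave 0.34 ± 0.20 (adjusted p = 0.391), and 0.07 ± 0.17 without control replicate 2.

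Sdf2l1, a partner of Dnajb11, differed by 0.61 ± 0.12 (adjusted p = 1.68e-05) and rose in C3H/HeJ by 1.34 ± 0.29 (adjusted p = 0.0018), in CBA/J by 0.69 ± 0.29 (adjusted p = 0.0447) and in B6C3F1/J by 1.28 ± 0.29 (adjusted p = 0.00218). Its difference was 0.67 ± 0.29 (adjusted p = 0.2) in 129S1/SvImJ, -0.25 ± 0.29 (adjusted p = 0.882) in C57BL6/J and -0.08 ± 0.29 (adjusted p = 0.917) in DBA/2J, and the test for unequal differences gave an adjusted p of 0.00267. Dnajc3, a J-domain protein of the lumen, gave 0.09 ± 0.05 (adjusted p = 0.2) on the probe set used. It was called higher with a covariate for the array median, at 0.15 (adjusted p = 0.0103), and lower with the mean of its probe sets, at -0.23 (adjusted p = 0.00511, and between 0.00511 and 0.497 over 13 alternatives), because 3 of its other 4 probe sets were called lower, from -0.26 to -0.51.

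Of the sensors, Atf6 encodes the membrane-bound transcription factor that is cut in the Golgi and then enters the nucleus. In 129S1/SvImJ livers, Atf6 ran from 9.21 to 9.85 in control mice (median 9.62) and from 9.14 to 9.60 in restricted mice (median 9.40). The C57BL6/J controls spanned 9.97 to 10.70 for Atf6 around a median of 10.54, and the restricted mice 10.29 to 10.90 around 10.45. For Atf6 in C3H/HeJ, the lowest, median and highest signals were 9.72, 9.96 and 10.19 on the control diet and 9.43, 9.88 and 10.22 on the restricted diet. The diets overlapped in all 3 strains, while the strains themselves lay apart, with every restricted and control 129S1/SvImJ mouse below every C57BL6/J mouse. Atf6 in CBA/J lay between 9.76 and 10.34 in controls, with a median of 9.83, and between 9.29 and 10.30 in restricted mice, with a median of 9.70. Atf6 signals of DBA/2J controls had a median of 10.55 and a range of 10.08 to 10.99, and those of restricted mice a median of 10.10 and a range of 9.49 to 10.38. In B6C3F1/J livers, Atf6 ran from 9.43 to 10.46 in control mice (median 10.21) and from 9.74 to 10.14 in restricted mice (median 9.92). Restricted mice lay below all controls in 4 of 8 cases in CBA/J and in 4 of 8 in DBA/2J. Atf6 fell in DBA/2J at -0.43 ± 0.13 (adjusted p = 0.0328) and was not called in another strain. The averaged difference was -0.18 ± 0.05 (adjusted p = 0.00816), -0.13 (adjusted p = 0.0875) after quantile normalization and -0.40 (adjusted p = 3.58e-06) with the mean of its probe sets (adjusted p between 3.58e-06 and 0.0875 over 13 alternatives).

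Ern1, the kinase and endoribonuclease that splices Xbp1 RNA, differed by -0.30 ± 0.10 (adjusted p = 0.0139) and was called lower in DBA/2J at -0.75 ± 0.24 (adjusted p = 0.0402). It was -0.28 (adjusted p = 0.0616) without CBA/J and -0.15 (adjusted p = 0.335) with the mean of its probe sets (adjusted p between 0.0113 and 0.335 over 13 alternatives). Without CBA/J and the 2 arrays Ern1 also lost its averaged call, while Xbp1 was called lower. Xbp1, whose spliced and unspliced RNA were not told apart here, gave -0.35 ± 0.19 (adjusted p = 0.178) with all arrays, but was called lower without the 2 arrays at -0.21 (adjusted p = 0.00363) and with array weights at -0.27 (adjusted p = 0.00174, and between 0.00114 and 0.606 over 13 alternatives). Eif2ak3 encodes the kinase that slows translation and Ppp1r15a the phosphatase subunit that restores it. They gave -0.002 ± 0.07 (adjusted p = 0.986) and 0.09 ± 0.11 (adjusted p = 0.61). Wfs1, an ER membrane protein, gave -0.26 ± 0.15 (adjusted p = 0.182). With all arrays, none of these 3 was called in any strain.

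The degradation factors moved both ways. Edem1 and Edem2, mannosidase-related proteins that direct misfolded glycoproteins to degradation, differed by 0.31 ± 0.07 (adjusted p = 0.000559) and 0.24 ± 0.06 (adjusted p = 0.00103). Edem1 rose in 129S1/SvImJ by 0.70 ± 0.18 (adjusted p = 0.00828) and in B6C3F1/J by 0.80 ± 0.18 (adjusted p = 0.00251) but fell in CBA/J at -0.58 ± 0.18 (adjusted p = 0.0079), and its averaged difference was 0.49 (adjusted p = 6.6e-07) without CBA/J and 0.18 (adjusted p = 0.0184) with the mean of its probe sets (adjusted p between 3.07e-10 and 0.0184 over 13 alternatives). Edem2 rose in 129S1/SvImJ by 0.47 ± 0.14 (adjusted p = 0.0361), and its averaged call was lost with the mean of its probe sets at 0.03 (adjusted p = 0.886, and between 4.54e-06 and 0.886 over 13 alternatives). Derl3, a membrane protein of the export channel, differed by -0.89 ± 0.24 (adjusted p = 0.00284), on a signal that reached the array median on 57 of 96 arrays. Its relative Derl2 gave 0.27 ± 0.10 (adjusted p = 0.0358), was called in B6C3F1/J at 0.81 ± 0.25 (adjusted p = 0.0379) and lost its averaged call on centring at the 75th percentile at 0.26 (adjusted p = 0.137) and with the mean of its probe sets at 0.01 (adjusted p = 0.913, and between 3.83e-06 and 0.913 over 13 alternatives). Leaving out 1 of 5 arrays (restricted replicate 2 of C57BL6/J, control replicate 1 and restricted replicates 1 and 4 of DBA/2J, control replicate 2 of B6C3F1/J) also ended this call, with an adjusted p of up to 0.0545.

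Derl1 gave 0.20 ± 0.10 (adjusted p = 0.126) with all arrays, was called higher in B6C3F1/J at 0.78 ± 0.24 (adjusted p = 0.0416), and passed the averaged test without the 2 arrays at 0.25 (adjusted p = 1.47e-06), with array weights at 0.22 (adjusted p = 5.11e-05) and with the covariate at 0.34 (adjusted p = 0.000236). With the mean of its probe sets it was lower, at -0.16 (adjusted p = 0.0454, and between 1.47e-06 and 0.301 over 13 alternatives). Leaving out only restricted replicate 6 of DBA/2J brought Derl1 to 0.29 (adjusted p = 3.37e-05). Syvn1, the ubiquitin ligase of this pathway, gave -0.39 ± 0.16 (adjusted p = 0.0636), was below 0 in all 6 strains and reached -0.40 (adjusted p = 0.0475) on centring at the 75th percentile and -0.39 (adjusted p = 0.0479) with a stricter filter (adjusted p between 0.0443 and 0.238 over 13 alternatives). Its partner Sel1l gave 0.09 ± 0.08 (adjusted p = 0.459) on the probe set used, while 2 of its other 4 were called lower. Herpud1, a membrane scaffold, gave 0.04 ± 0.11 (adjusted p = 0.825).

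Of the translocation proteins, Sec61b is a small tail-anchored subunit of the channel through which chains enter the ER. For Sec61b in 129S1/SvImJ, the lowest, median and highest signals were 11.38, 11.79 and 12.36 on the control diet and 12.04, 13.14 and 13.60 on the restricted diet. Sec61b in C57BL6/J lay between 11.95 and 12.66 in controls, with a median of 12.36, and between 12.36 and 13.95 in restricted mice, with a median of 12.65. Sec61b signals of C3H/HeJ controls had a median of 11.89 and a range of 11.59 to 13.04, and those of restricted mice a median of 12.58 and a range of 12.13 to 12.96. In 129S1/SvImJ 6 of 8 restricted mice lay above all controls and in C57BL6/J 4. In C3H/HeJ none did, because 1 control reached 13.04. In CBA/J livers, Sec61b ran from 12.50 to 13.11 in control mice (median 12.82) and from 13.20 to 14.08 in restricted mice (median 13.55). The DBA/2J controls spanned 11.72 to 13.41 for Sec61b around a median of 12.71, and the restricted mice 12.73 to 14.18 around 13.62. For Sec61b in B6C3F1/J, the lowest, median and highest signals were 10.39, 11.79 and 11.99 on the control diet and 12.47, 12.69 and 13.04 on the restricted diet. All 8 restricted mice lay above all controls in CBA/J and B6C3F1/J, and 6 of 8 did in DBA/2J. Sec61b differed by an average of 0.82 ± 0.08 (adjusted p = 3.87e-14). Sec61b rose in 129S1/SvImJ by 1.12 ± 0.20 (adjusted p = 4.45e-05), in CBA/J by 0.77 ± 0.20 (adjusted p = 0.00166), in DBA/2J by 0.89 ± 0.20 (adjusted p = 0.00198) and in B6C3F1/J by 1.15 ± 0.20 (adjusted p = 4.61e-05), the last 0.97 ± 0.20 without control replicate 2. C57BL6/J gave 0.49 ± 0.20 (adjusted p = 0.223) and C3H/HeJ 0.53 ± 0.20 (adjusted p = 0.234).

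Sec61a1 forms the pore of the same channel. Sec61a1 signals of 129S1/SvImJ controls had a median of 11.70 and a range of 11.45 to 12.003, and those of restricted mice a median of 12.14 and a range of 11.65 to 12.50. In C57BL6/J livers, Sec61a1 ran from 11.14 to 11.90 in control mice (median 11.49) and from 11.71 to 12.23 in restricted mice (median 11.90). The C3H/HeJ controls spanned 11.20 to 12.03 for Sec61a1 around a median of 11.66, and the restricted mice 11.32 to 12.07 around 11.67. Restricted mice lay above all controls in 5 of 8 cases in 129S1/SvImJ, 4 of 8 in C57BL6/J and 1 of 8 in C3H/HeJ. For Sec61a1 in CBA/J, the lowest, median and highest signals were 11.88, 12.07 and 12.23 on the control diet and 11.94, 12.49 and 12.74 on the restricted diet. Sec61a1 in DBA/2J lay between 11.20 and 12.24 in controls, with a median of 11.65, and between 11.85 and 12.53 in restricted mice, with a median of 12.18. Sec61a1 signals of B6C3F1/J controls had a median of 11.15 and a range of 9.43 to 11.73, and those of restricted mice a median of 11.71 and a range of 11.04 to 12.03. The counts were 6 of 8 in CBA/J, 2 of 8 in DBA/2J and 4 of 8 in B6C3F1/J. The averaged difference was 0.40 ± 0.06 (adjusted p = 3.19e-07), with calls in DBA/2J at 0.52 ± 0.16 (adjusted p = 0.0279) and in B6C3F1/J at 0.63 ± 0.16 (adjusted p = 0.00642), the latter 0.41 ± 0.13 without control replicate 2. Without the 2 arrays Sec61a1 was called higher in all strains but C3H/HeJ, which gave 0.05 ± 0.12. Ssr1 and Ssr2, subunits of the complex that sits beside the channel, gave 0.004 ± 0.06 (adjusted p = 0.971) and -0.02 ± 0.13 (adjusted p = 0.936), and Ssr1 fell in CBA/J at -0.59 ± 0.15 (adjusted p = 0.000775).

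Within single strains, and with all arrays, the lower calls outside CBA/J came from DBA/2J and C57BL6/J, and 129S1/SvImJ, C3H/HeJ and B6C3F1/J had higher calls only. In DBA/2J 10 members were lower (4.46% of all genes) and 2 higher (2.29%), and in C57BL6/J 6 were lower (1.85%) and none higher (1.87%). In C57BL6/J the endothelial markers and the 3' to 5' actin difference moved with diet, as did the T and NK cell markers, whose mean lay below the array median. In CBA/J 8 were lower (15.6%) and 5 higher (25.1%). Array medians there moved with diet, as did the markers of hepatocytes and of 4 other cell types, some with means below the array median. In B6C3F1/J none was lower (1.27%) and 7 were higher (3.37%), in 129S1/SvImJ none was lower (2.48%) and 3 were higher (2.8%), and in C3H/HeJ none was lower (0.853%) and 1 higher (1.1%).

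These counts moved with the 2 arrays that stand apart, 1 of which is a B6C3F1/J control. Without them DBA/2J had 9 lower (4.43%) and 3 higher (3.91%), C57BL6/J 9 lower (3.57%) and 1 higher (3.65%), and CBA/J 8 lower (18.1%) and 6 higher (29.6%). B6C3F1/J had 2 lower (2.19%), Hspa5 and Creld2, and 7 higher (2.38%). 129S1/SvImJ had 3 lower (4.24%) and 5 higher (5.16%), and C3H/HeJ 5 lower (1.87%) and 2 higher (2.23%). Hspa5 and Creld2 were thus called lower in 5 of 6 strains without these arrays, the exception for both being CBA/J. Among the higher calls of B6C3F1/J, the difference without these arrays was 1.39 ± 0.29 for Sdf2l1, 0.56 ± 0.11 for Derl1, 0.51 ± 0.17 for Derl2 and 0.61 ± 0.15 for Edem1, with Derl2 no longer called. Among the lower calls of DBA/2J it was -0.56 ± 0.14 for Pdia3, -0.50 ± 0.11 for Txndc5 and -0.54 ± 0.24 for Ern1, with Ern1 no longer called. The cause of the CBA/J shift was not tested.

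The strains that carried the calls also depended on whether the 12 groups shared 1 estimate of spread. With only the 2 groups of a strain fitted, DBA/2J had 3 lower (Hspa5, Creld2 and Manf; 0.582% of all genes) and none higher (0.338%), and B6C3F1/J none lower (0.298%) and only Sec61b higher (0.765%). C57BL6/J then had 11 lower (5.54%) and 2 higher (4.85%), C3H/HeJ 6 lower (3.3%) and 2 higher (4%), 129S1/SvImJ 2 lower (3.19%) and 5 higher (3.64%), and CBA/J 9 lower (15%) and 5 higher (26.6%). The array that stands apart was still among the 16 of DBA/2J and of B6C3F1/J in these fits. Without it DBA/2J had 6 lower (1.76%) and none higher (1.58%), and B6C3F1/J 4 lower (Hspa5, Dnajb9, Creld2 and Manf; 2.73%) and 8 higher (3.47%). Creld2 was called lower in every strain, and Hspa5 in every strain but CBA/J, when each strain was fitted alone and without these arrays.

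**Figure D4:**
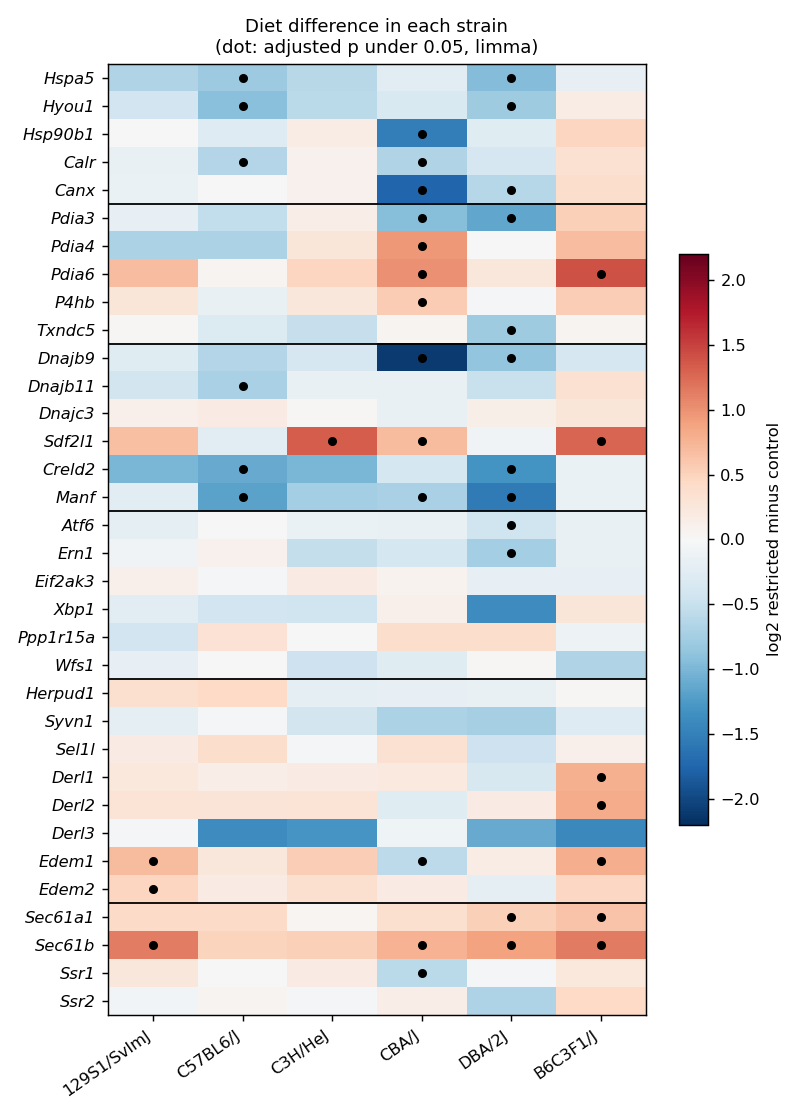
Diet difference of each member in each strain (colour: log2 restricted minus control, dot: adjusted p under 0.05 in limma). The CBA/J column holds Dnajb9 at -2.11, Canx at -1.74 and Hsp90b1 at -1.52, and Sec61b is above 0 in all 6 strains.

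Whether the diet difference was equal in the 6 strains was tested directly. Of the members, 13 had unequal differences (38.2%, against 23.9% of all genes), led by Canx, Dnajb9, Pdia4 and Hsp90b1. Against the mean of the other 5 strains, the CBA/J difference was called for 7 members (32.4% of all genes), lower for Canx (-1.69), Dnajb9 (-1.61), Hsp90b1 (-1.53), Edem1 (-1.07), Ssr1 (-0.71) and Calr (-0.52) and higher for Pdia4 (1.04). The other strains each had at most 1 such member. Pdia4 was lower by that measure in 129S1/SvImJ (-0.94; 1.09% of all genes) and C57BL6/J (-0.94; 0.697%), Manf in DBA/2J (-0.95; 0.67%), and Canx was higher in B6C3F1/J (0.88; 0.25%). This measure was computed with all arrays only, control replicate 2 of B6C3F1/J and restricted replicate 6 of DBA/2J among them. C3H/HeJ had none (0.115%). Without CBA/J, 3 members had unequal differences, Pdia4, Manf and Sdf2l1 (1.54% of all genes). Without CBA/J and the 2 arrays the count was 6 (3.97%).

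On the control diet alone, levels differed between strains for 22 of 34 members (64.7%, against 43.7% of all genes). DBA/2J had the highest control mean of Hspa5, Hsp90b1, Calr and Hyou1, and B6C3F1/J, which holds 1 of the 2 arrays that stand apart, the lowest of Hspa5, Hsp90b1, Canx and Hyou1. Without that array only Hspa5 was lowest in B6C3F1/J, at 14.02 against 14.07 in C3H/HeJ, and 129S1/SvImJ had the lowest control mean of Hsp90b1 (13.35, against 13.36 in B6C3F1/J), Canx (12.62 against 12.64) and Hyou1 (10.05 against 10.37). Against the mean of the other 5 strains, 12 members were higher in DBA/2J controls (7.25% of all genes) and 16 without the 2 arrays (10.8%), Hspa5 among them at 0.73, and 0.65 without those arrays. In 129S1/SvImJ controls 7 members were lower (6.63%), and 13 without the 2 arrays (9.87%). In B6C3F1/J controls 13 were lower (7.69%), but 8 without the array that stands apart (4.74%): Hspa5 was -0.70 with it and -0.31, no longer called, without it.

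Atf6 had the smallest p of this test among the members, with -0.60 in 129S1/SvImJ, 0.46 in C57BL6/J and 0.50 in DBA/2J relative to the other strains, and an adjusted p of 1.1e-08 over the 6 groups. Dnajb11 was 0.73 in C57BL6/J and -0.90 in B6C3F1/J, the latter -0.63 without control replicate 2 (adjusted p over the 6 groups = 9.7e-08). Sec61b was 0.72 in CBA/J, 0.61 in DBA/2J, -0.46 in 129S1/SvImJ and -0.75 in B6C3F1/J (adjusted p = 1.75e-07), and Sec61a1 0.57 in CBA/J and -0.72 in B6C3F1/J (adjusted p = 1.83e-06). Without the array that stands apart the B6C3F1/J values were -0.58 and -0.49. Ern1 had another order, with 0.78 in C3H/HeJ and 0.63 in CBA/J against -0.66 in C57BL6/J and -0.71 in DBA/2J. Probe sequences were not compared with the strains' own genomes here.

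Where a gene had several probe sets, they did not always move together. The members had 82 single-symbol probe sets, 80 of which were tested, and 29 were called lower (13.2% of all probe sets tested) and 12 higher (12.2%). All 3 probe sets of Hspa5 were lower, from -0.25 to -0.82, as were all 3 of Atf6, from -0.18 to -0.58, and 2 of 3 of Hyou1. Of the 6 for Sec61a1, 4 were higher and none lower. Derl1 and Derl2 were called in both directions: Derl1 had 1 probe set higher at 0.20 and others lower at -0.74 and -0.31, and Derl2 was 0.27 on the one used and -0.24 on the other. For Calr, Canx, Pdia3, Pdia6, Ern1 and Edem2 no other probe set was called, and for Xbp1 1 of 4 was lower, at -0.25 (adjusted p = 0.0118). For Sel1l 2 of the 4 probe sets not used were lower, at -0.22 (adjusted p = 0.0492) and -0.30 (adjusted p = 0.00799), and for Ssr1 1 of 3 was lower, at -0.52 (adjusted p = 0.0192). Which transcripts each probe set reads was not analysed here.

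Mice of 1 group differed in Hspa5, and several members deviated with it. After each group's mean was removed, the deviation of 33 members was set against that of Hspa5 over the 96 arrays, with 100000 permutations within groups, two-sided, and adjustment over the 33. Of the 33, 19 had a positive Pearson correlation that passed and 4 a negative one, and the median r was 0.415 against -0.0727 over all genes. The share of all genes that would pass this test was not computed, but the 95th percentile of r over all genes was 0.598. Members with a positive r that passed ran from percentile 80.0 of all genes for Ssr2 (r = 0.31) to 99.8 for Manf. Without the 2 arrays that stand apart, 10 positive and 4 negative correlations passed, and the median r was 0.167 against -0.00826. The 2 deviations of a point come from 1 array, and after quantile normalization of the arrays the median was 0.183 against 0.0435. Dnajb9 gave r = 0.702 (adjusted p = 8.25e-05, permutation p = 1e-05) and rho = 0.646 (permutation p = 1e-05), where 1e-05 is the smallest p these draws can give. Its r was 0.594 without the 2 arrays farthest in Hspa5, control replicate 8 of 129S1/SvImJ and control replicate 2 of B6C3F1/J, and 0.64 without the 2 arrays that stand apart. Within the 6 strains, each with 16 arrays, it ran from 0.564 to 0.825.

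Manf gave r = 0.76 (adjusted p = 8.25e-05, permutation p = 1e-05) and rho = 0.571 (permutation p = 1e-05), with 0.591 without the 2 farthest arrays and from 0.173 in CBA/J to 0.975 in B6C3F1/J within strains. Derl2 gave r = 0.674 (adjusted p = 8.25e-05, permutation p = 1e-05) and rho = 0.564 (permutation p = 1e-05), with 0.541 without the farthest arrays. Other correlations rested on few arrays: Hsp90b1 went from 0.729 to 0.395 without the 2 arrays that stand apart, Pdia6 from 0.709 to 0.215, and Creld2 from 0.663 to 0.126. The most negative value was that of Eif2ak3, with r = -0.529 (adjusted p = 0.000231, permutation p = 7e-05) and rho = -0.429 (permutation p = 3e-05), below 0 in all 6 strains and -0.385 without the farthest arrays.

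**Figure D5:**
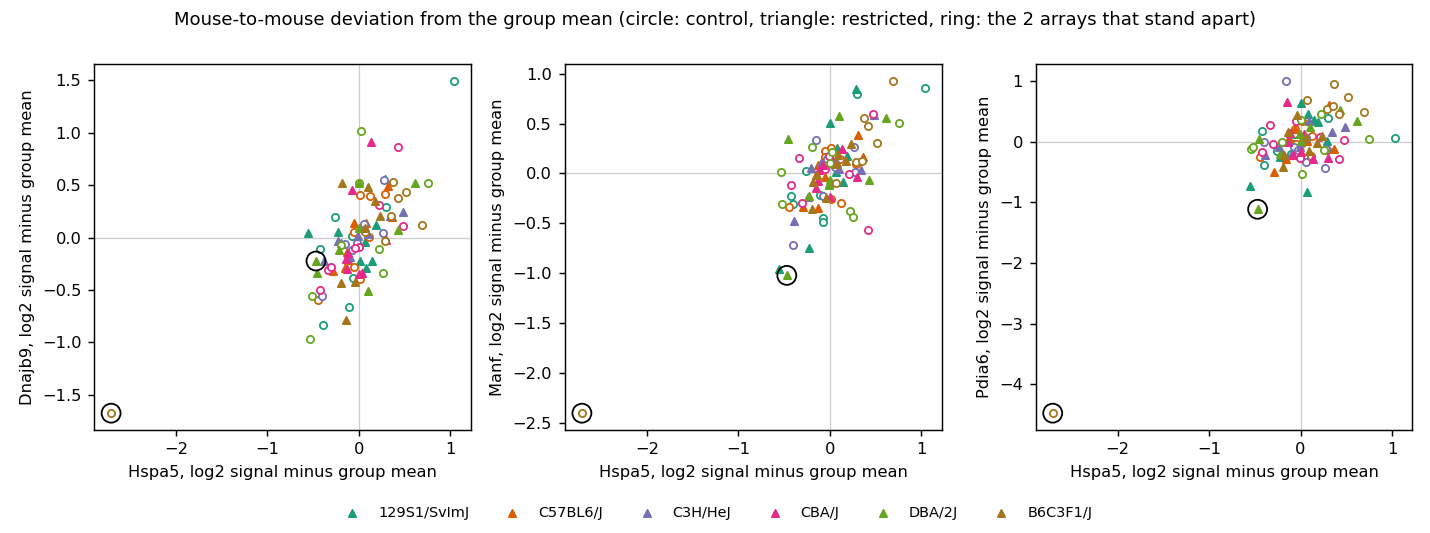
Deviation from the group mean of Dnajb9, Manf and Pdia6 (y axes, log2) against that of Hspa5 (x axis, log2) in 96 mice, coloured by strain (circle: control, triangle: restricted, ring: the 2 arrays that stand apart). Dnajb9 and Manf follow Hspa5 among the unringed points (r = 0.64 and 0.569), whereas r for Pdia6 is 0.215 without the 2 ringed arrays.

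Other genes of the same pathways, on 5 lists with no member among them, are given for comparison. Their differences were computed with all arrays only, those of CBA/J among them. Against 12.5% lower and 15.2% higher over all genes, the 25 tested genes of ER folding and redox had 2 lower and 10 higher, with a median of 0.14. The thioredoxin-like Tmx2 rose by 0.55 ± 0.07 (adjusted p = 4.9e-10) and the BiP nucleotide exchange factor Sil1 by 0.34 ± 0.05 (adjusted p = 6.05e-09). The 21 further degradation genes had 4 lower and 3 higher, with Ubxn4 at -0.65 ± 0.05 (adjusted p = 8.69e-21) and Edem3, a mannosidase related to Edem1 and Edem2, at -0.33 ± 0.05 (adjusted p = 4.15e-07), so that Edem3 fell where Edem1 and Edem2 rose.

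The 25 translocation and N-glycosylation genes had 5 lower and 5 higher. Stt3b, a catalytic subunit of the glycosylation enzyme, fell by 0.41 ± 0.05 (adjusted p = 8.68e-11). Of the enzyme's other subunits, Ddost rose by 0.37 ± 0.09 (adjusted p = 0.00052) and Rpn2 by 0.37 ± 0.11 (adjusted p = 0.00499), while Rpn1 and Dad1 were not called. Srprb, a subunit of the receptor that docks ribosomes at the ER, fell by 0.33 ± 0.07 (adjusted p = 5.13e-05). Srpr, the other subunit of that receptor, rose by 0.27 ± 0.06 (adjusted p = 0.00026). Of 19 tested genes of sensors and the PERK-ATF4 arm, 3 were lower and 3 higher, led by Asns, the asparagine synthetase that ATF4 induces, at 1.51 ± 0.22 (adjusted p = 1.83e-08) and Chac1 at 0.69 ± 0.16 (adjusted p = 0.000343). Ppp1r15a, a member that ATF4 signalling also induces, gave 0.09 ± 0.11 (adjusted p = 0.61). Of 23 genes of COPII vesicles and KDEL retrieval, which carry proteins from the ER and return escaped chaperones, 2 were lower and 2 higher, with Sec23b at -0.39 ± 0.05 (adjusted p = 3.9e-09) and Sec24d at -0.27 ± 0.08 (adjusted p = 0.00713).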

How the data were processed

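Liver RNA of 96 mice was measured on 96 arrays, 1 mouse each. The authors deposited a linear signal intensity for each of 45101 probe sets, computed with MAS5 per the submitters' processing notes; its version and settings were not given in the sources used here. Every deposited column had a trimmed mean, with 2% left out at each end, between 500 and 500.2, so arrays were already scaled to each other. The number of arrays limits the precision. Of the probe sets, 64 were controls, and of the rest 34945 had 1 gene symbol, 932 several and 9160 none.

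Signals were taken to log2 with no offset. Genes were kept where the signal was at or above the array median on at least 8 arrays. limma 3.58.1 in R 4.3.3 fitted a mean for each of the 12 groups (eBayes with trend and robust variances), with Benjamini-Hochberg adjustment over the 14777 genes within each contrast. Contrasts were the diet difference averaged over strains, the difference in each strain, the F test of unequal differences, and the F test over control groups. Correlations and array measures were permuted with numpy 2.4.6 in Python 3.11.15, and figures were drawn with matplotlib 3.10.9. The scripts were tested on simulated data.

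Group values were given for the 8 members with the smallest p for the averaged difference, the 4 with the smallest for unequal differences and the 4 with the smallest over control groups, and 2 genes of each further list by the averaged p. Srpr, Ddost, Rpn2, Rpn1 and Dad1 were added as further subunits of the complexes of Srprb and Stt3b. The members and gene lists were chosen with earlier results of these data known. Other alternatives covered the scaling, the filter, the probe set rule, array weights, a replicate block, and leaving out arrays or CBA/J. The setting without both CBA/J and the 2 arrays was chosen after seeing the data, as were the control-diet test, the correlations and the single-strain fits without the 2 arrays. Promoter sequences came from RefSeq (GRCm38.p6); protein sequences were not used here.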

Additional observations from a re-analysis of the deposited data

Results flagged for a closer look

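In 25 of 156 groups of 8 mice tested over the 13 members described by group, the highest or lowest mouse lay apart from the other 7 by Dixon's criterion, which chance meets in about 1 group in 20. Of these 25 values, 11 came from 1 array, control replicate 2 of B6C3F1/J, the array with the highest median signal. It read 10.92 for Hspa5, 9.757 for Hsp90b1, 10.87 for Canx, 6.043 for Pdia6, 10.46 for Dnajb9 and 7.347 for Dnajb11. It also read 7.274 for Hyou1, 4.386 for Creld2, 9.162 for Manf, 9.425 for Sec61a1 and 10.39 for Sec61b, the lowest value of its group in each case. Restricted replicate 6 of DBA/2J, the other array with a raised median, lay apart for Pdia6 at 11.23.

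The other 13 values were spread over arrays. Among the chaperones, Hspa5 read 13.92 in control replicate 1 of C57BL6/J, Hsp90b1 read 13.81 in restricted replicate 5 of 129S1/SvImJ and 14.28 in restricted replicate 1 of DBA/2J, and Hyou1 read 9.666 in control replicate 2 of CBA/J and 8.98 in restricted replicate 4 of DBA/2J. Pdia6 read 12.51 in control replicate 6 of C3H/HeJ and 13.79 in restricted replicate 4 of CBA/J, a mouse that also lay apart for Creld2 at 8.964. Dnajb11 read 10.71 and Sec61b 13.95 in restricted replicate 2 of C57BL6/J, and Dnajb11 read 11.11 in control replicate 8 of DBA/2J. Atf6 read 10.9 in restricted replicate 1 of C57BL6/J and 9.494 in restricted replicate 4 of DBA/2J.

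Diet differences were unequal between strains, by the F test of limma with adjustment over all genes, for 13 members. Adjusted p-values were 1.84e-08 for Canx, 1.57e-05 for Dnajb9, 1.79e-05 for Pdia4, 3.46e-05 for Hsp90b1, 0.00012 for Edem1 and 0.00147 for Manf. They were 0.00252 for Calr, 0.00267 for Sdf2l1, 0.00606 for Pdia3, 0.0071 for Ssr1, 0.0269 for Txndc5, 0.045 for Dnajb11 and 0.048 for Edem2. Without CBA/J the count was 3, and the part of the CBA/J array medians in it was not tested.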

How the results depend on the processing

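Members called lower on average numbered 9 to 19 and higher 6 to 10 over the alternatives without a minimum fold, and 4 and 3 with at least 1.5-fold; leaving out each array in turn gave 13 to 15 lower and 7 to 9 higher. Hspa5, Pdia6, Dnajb9, Hyou1, Creld2, Manf, Sdf2l1, Derl3, Edem1, Sec61a1 and Sec61b kept call and direction in all 13 alternative fits of the averaged difference. Of these, Dnajb9, Creld2, Manf, Sdf2l1, Derl3 and Sec61b had only 1 probe set, so the alternative with the mean of probe sets could not change their values. Of 156 alternative values of the 13 members described by group, 149 kept their side of the threshold, 4 lost the call, 3 gained it and 0 reversed. Syvn1 gained a call when 1 of 10 arrays was left out, and its adjusted p ran from 0.0398 to 0.101 over the fits that left out each array in turn. The count of unequal differences was 13, and 23 with array weights, 3 without CBA/J and 6 without CBA/J and the 2 arrays. By strain, quantile normalization gave 2 calls in C3H/HeJ against 1, and the mean of probe sets gave 4 in B6C3F1/J against 7. Leaving out the 2 arrays gave 8 in 129S1/SvImJ against 3, 10 in C57BL6/J against 6 and 7 in C3H/HeJ against 1. Fitting only the 2 groups compared gave 7 in 129S1/SvImJ, 13 in C57BL6/J, 8 in C3H/HeJ, 3 in DBA/2J against 12 and 1 in B6C3F1/J against 7, and also without the array that stands apart 6 in DBA/2J and 12 in B6C3F1/J. Control-diet calls numbered 20 to 28. Positive correlations with Hspa5 fell from 19 to 12 after quantile normalization to 12 with the array median regressed out and to 10 without the 2 arrays. With the replicate number as a block, 13 members were lower, 8 higher, 14 unequal and 22 different on the control diet, and 129S1/SvImJ had 4 calls; the block changed no other count. The labels do not state that the numbers pair the mice. Same-numbered pairs (48) had deviations with r from -0.169 to 0.141, 5 over 0.1. Their median was 0.0118, against -0.00182 for other pairs. Of 48 controls, 11 correlated best with their own number among the 8 restricted mice of the strain, and whether this exceeds chance was not tested. The causes of these shifts were not tested.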
